A study of Mus musculus with 9 samples.

Results

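The genes described here are the Olig transcription factors Olig1, Olig2 and Olig3, together with Sox10, Pdgfra and Cspg4, which mark oligodendrocyte precursor cells (OPCs). They were taken by exact symbol, 6 genes of the 38197 symbols measured. The question is how these genes were expressed in neural stem cells (NSCs) of ventral hindbrain culture as the days passed. Mouse embryonic stem cells of strain 129, wild type, were differentiated in monolayer with retinoic acid (RA) and the Smoothened agonist SAG, given by the labels as applied from 0 to 3 days in differentiation conditions (DDC). The methods of the study place the removal slightly later. Cells carrying the surface protein prominin-1 were then sorted with magnetic beads and poly(A)-selected RNA was sequenced. Libraries came from 4.5DDC, 5.5DDC and 6.5DDC, 3 each. By their titles the groups differed in time point alone, with no untreated or unsorted group among them. Nothing used here says whether the 3 libraries of a time point came from separate cultures, so p-values measure only the spread between these libraries.

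Olig1 and Olig2 are basic helix-loop-helix (bHLH) factors encoded by neighbouring genes. Olig2 is induced by Sonic hedgehog signalling in ventral progenitors, where it is required for somatic motor neurons and later for OPCs, and Olig1 acts in oligodendrocyte maturation. Olig3 is known from dorsal hindbrain progenitors and, in ventral neural tube, from newly formed neurons. Sox10 maintains the oligodendrocyte lineage and neural crest derivatives. Pdgfra encodes the receptor through which PDGF-A drives OPC proliferation, and is also made by mesenchyme and primitive endoderm. Cspg4 encodes the NG2 proteoglycan of OPCs and pericytes.

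Library totals ran from 11066572 to 25506192 counts. A count of 0 allows up to 3 counts, taken here as the floor of a library, which is 0.118 to 0.271 CPM (counts scaled to the library total) depending on depth. These floors cover counting error alone. The labelled cell type was checked against 7 neural stem cell markers, all of which had counts in all 9 libraries. Sox2 stood at 82.1 ± 5.18, 85.3 ± 3.53 and 87.6 ± 7.37 FPKM (fragments scaled to transcript length and library size; SD, n = 3) at 4.5DDC, 5.5DDC and 6.5DDC. Nes stood at 157 ± 11.5, 160 ± 10 and 154 ± 14.0 FPKM. Prom1, which encodes the protein used for the sort, rose from 79.1 ± 14.3 to 183 ± 27.2 FPKM between 4.5DDC and 6.5DDC (edgeR adjusted p = 0.0036). Sox3 fell from 8.29 ± 5.34 to 2.38 ± 1.10 FPKM (edgeR adjusted p = 0.033), a call lost in 3 of 9 refits that each left out 1 library. The highest adjusted p among these, 0.125, came without 4.5DDC replicate 2, and the others lost it without 6.5DDC replicate 1 or replicate 2.

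Replicate 1 stood apart from replicates 2 and 3 at each time point. Over the 14742 tested genes, deviations from the time-point mean in a replicate 1 library correlated with those in replicates 2 and 3 of another time point at -0.65 to -0.12. Replicates 2 and 3 of different time points correlated with one another at 0.22 to 0.49. For the 4 tested genes, the fold changes from 4.5DDC to 6.5DDC are therefore also given for replicates 2 and 3 alone, a choice made after seeing the data.

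Olig2 had the highest mean of the Olig genes at 4.5DDC, though Olig3 was above it in replicate 1 (1.02 against 0.564 FPKM). It lies on the plus strand at chr16:91225457-91228677 (GRCm38, GENCODE M21), in 2 exons, with no other annotated gene over it. At 4.5DDC its level was 0.564, 9.97 and 4.45 FPKM in replicates 1, 2 and 3, from 31, 337 and 193 counts. At 5.5DDC it was 0.132, 1.96 and 1.72 FPKM, from 10, 67 and 56 counts. At 6.5DDC it was 0.0533, 0.528 and 1.44 FPKM, from 2, 27 and 68 counts. Replicate 1 was the lowest library at each time point, and the groups overlapped: 4.5DDC replicate 1 lay among the later libraries, and 5.5DDC replicate 1 among those of 6.5DDC. In CPM, replicates 2 and 3 averaged 12.5 times replicate 1 at 4.5DDC and 13.8 times at 5.5DDC. Within each replicate number the later library was lower in both intervals. From 4.5DDC to 5.5DDC the difference of Olig2 in log2 CPM was -1.84, -2.35 and -1.46 in replicates 1, 2 and 3, and from 5.5DDC to 6.5DDC it was -0.81, -1.71 and -0.27. The 2 counts of 6.5DDC replicate 1 lie under the floor of 3, so the difference of replicate 1 in the second interval is not measured well. In bulk libraries, fewer cells that express a gene and less RNA of it per cell cannot be told apart.

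The fit over all 9 libraries gave Olig2 a log2 fold change of -2.06 ± 1.15 (SE) from 4.5DDC to 5.5DDC (edgeR adjusted p = 0.42) and -0.83 ± 1.17 from 5.5DDC to 6.5DDC (edgeR adjusted p = 0.73). From 4.5DDC to 6.5DDC it was -2.89 ± 1.19 (edgeR adjusted p = 0.115), and its 95% interval ran from -5.55 to -0.23. None of these passed the threshold of 0.05. With the replicate number as a block the change from 4.5DDC to 5.5DDC passed, at -2.05 ± 0.41 (edgeR adjusted p = 0.048; 0.020 to 0.731 over the alternatives tried). Replicate numbers 2 and 3 were not shown to pair libraries of different time points. In replicates 2 and 3 alone, Olig2 fell from 4.5DDC to 6.5DDC, with a log2 fold change of -2.91 (edgeR adjusted p = 0.0040). Over the alternatives tried, the adjusted p of that change ran from 0.00073 to 0.352, and the sign was negative in all 19. The size of the Olig2 change depended on single libraries and on the method. Over the whole span it ran from -3.97 (without 6.5DDC replicate 3) to -1.52 (limma on log2(FPKM + 1)). In the first interval it ran from -2.60 (without 4.5DDC replicate 1) to -1.12 (limma on log2(FPKM + 1), and also without 4.5DDC replicate 2). In the second it ran from -1.90 (without 6.5DDC replicate 3) to -0.31 (without 6.5DDC replicate 1).

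Olig1 lies 41095 bases beyond the end of Olig2 on the same strand, at chr16:91269772-91271933, as a single exon. Its last 157 exonic bases, 7.26% of the gene, overlap an exon of the long noncoding RNA gene Gm15966 on the opposite strand. The counting is not stated to use strand, so reads there cannot be assigned to one of the genes. Gm15966 itself held 14 counts over the 9 libraries. Olig1 had 2, 51 and 32 counts at 4.5DDC in replicates 1, 2 and 3. It had 0, 8 and 11 counts at 5.5DDC and 0, 0 and 4 at 6.5DDC. The libraries at or under the floor were all 3 of replicate 1 and 6.5DDC replicate 2. In FPKM the means were 0.875 ± 0.848, 0.216 ± 0.196 and 0.032 ± 0.055 (SD, n = 3), with overlap between neighbouring groups. The 4.5DDC and 6.5DDC groups overlapped as well, through 4.5DDC replicate 1 at 0.0426 FPKM and 6.5DDC replicate 3 at 0.0961 FPKM.

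Olig1's fitted change from 4.5DDC to 6.5DDC was -4.57 ± 1.59 on the log2 scale (SE), with a 95% interval from -8.12 to -1.02 (edgeR adjusted p = 0.071). The changes of the separate intervals were -2.18 ± 1.30 and -2.39 ± 1.76 (edgeR adjusted p = 0.46 and 0.47). With 4 counts in all at 6.5DDC, the size of the fitted change may depend on the prior count of the model, which was not tested. In replicates 2 and 3 alone Olig1 fell, with a log2 fold change of -4.69 (edgeR adjusted p = 0.0037). The 9-library change also passed without 4.5DDC replicate 1 (edgeR adjusted p = 0.033), without 5.5DDC replicate 1 (edgeR adjusted p = 0.036) and in the DESeq2 Wald test (adjusted p = 0.0194). Over all alternatives its adjusted p ran from 0.0017 to 0.216, and its log2 fold change from -8.09 (without 6.5DDC replicate 3, which holds all 4 counts of 6.5DDC) to -0.75 (limma on log2(FPKM + 1)). The study chose a list of genes that rose and then fell, partly from these time points. The text used here does not name all its members, so the direction of Olig1 and Olig2 is not taken as independent evidence.

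The ratio of Olig2 to Olig1, which does not depend on library scaling, was 13.2, 5.73 and 5.29 in FPKM at 4.5DDC in replicates 1, 2 and 3. The first of these rests on 2 Olig1 counts. At 5.5DDC it was 7.38 and 4.48 in replicates 2 and 3, and at 6.5DDC it was 15.0 in replicate 3. Olig1 was at 0 in the other 3 libraries, where no ratio can be formed, so the planned exact test between time points was not run. Across the 9 libraries, log2 CPM of Olig1 and Olig2 correlated at 0.93, and across the 6 libraries of replicates 2 and 3 at 0.97. These points share their time points and replicate numbers, and the correlation is a description only.

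Other genes of the locus had their own levels. Upstream of Olig2, Paxbp1, 180914 bases away, stood at 63.3 ± 13.3, 71.4 ± 3.94 and 70.9 ± 11.4 FPKM over the 3 time points. On the far side of Olig1, the interferon receptor gene Ifnar2, 100850 bases away, stood at 9.57 ± 2.43, 9.62 ± 3.27 and 6.17 ± 1.60 FPKM. The interleukin receptor gene Il10rb, 134231 bases away, stood at 4.65 ± 1.27, 7.11 ± 1.23 and 10.5 ± 2.09 FPKM. Both receptor genes overlap the predicted gene Gm21970 on their strand, so their counts are uncertain. Paxbp1, Ifnar2 and Il10rb were detected in all 9 libraries, including those in which Olig1 was at 0.

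**Figure D1:**
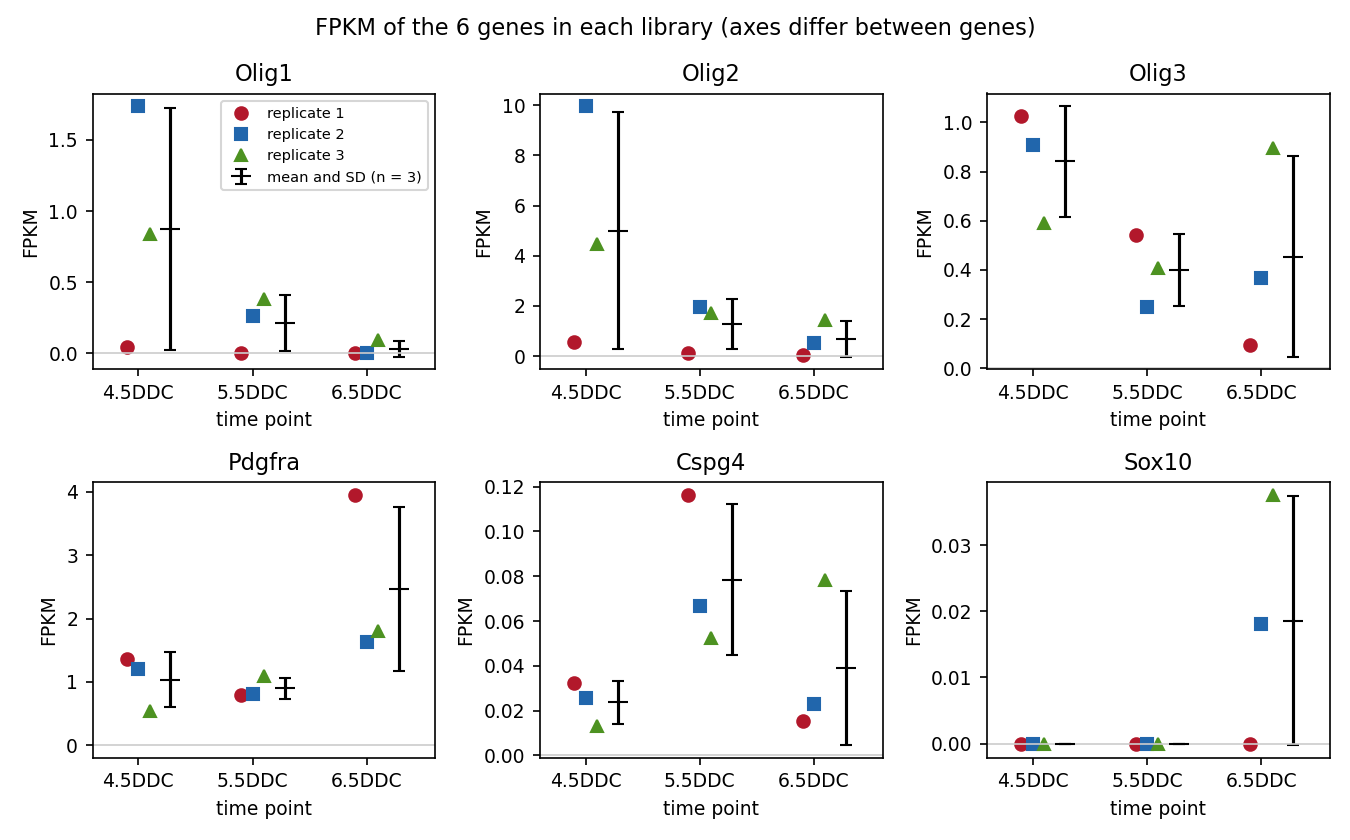
FPKM (vertical axis, a separate scale for each gene) of the 6 genes in each library at 4.5DDC, 5.5DDC and 6.5DDC, with circles, squares and triangles for replicates 1, 2 and 3 and black bars for the mean and SD (n = 3). Replicate 1 is lowest for Olig2 at each time point, from 0.564 FPKM at 4.5DDC down to 0.0533 FPKM at 6.5DDC, and Pdgfra at 6.5DDC, at 1.63 to 3.96 FPKM, lies above all earlier libraries.

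Olig3, on the plus strand at chr10:19356533-19358604 in a single exon, had a different pattern over the replicates. It stood at 1.02, 0.909 and 0.590 FPKM at 4.5DDC in replicates 1, 2 and 3, from 45, 25 and 21 counts. At 5.5DDC it was 0.544, 0.248 and 0.408 FPKM, from 34, 7 and 11 counts. At 6.5DDC it was 0.0968, 0.369 and 0.897 FPKM, from 3, 15 and 35 counts. Replicate 1 was the highest library at the earlier time points and the lowest at 6.5DDC. The 5.5DDC libraries all lay below the 4.5DDC libraries, without overlap, as did 9.09% of the 23122 genes with a count (exact permutation p = 0.1, the smallest that 3 against 3 can give). The 6.5DDC libraries spread across both earlier groups. The fit gave -1.07 ± 0.61, 0.18 ± 0.62 and -0.89 ± 0.61 for the first interval, the second and the whole span (log2, SE; edgeR adjusted p = 0.44, 0.90 and 0.32). From 5.5DDC to 6.5DDC the replicates moved apart, by -1.93 in replicate 1 and by 0.53 and 1.01 in replicates 2 and 3 (log2 CPM), and the 3 counts of Olig3 in 6.5DDC replicate 1 are at the floor. The whole-span change of Olig3 ran from -1.77 (without 6.5DDC replicate 3) to -0.28 (replicates 2 and 3 alone). Genes that mark the dorsal hindbrain territory where Olig3 is best known were low or absent, apart from Lmx1b. Atoh1, Ptf1a and Lbx1 were at 0 in all 9 libraries, and 2 of the 9 genes of that list, Lmx1b and Msx1, were tested and not called, with a median log2 fold change of 0.57 from 4.5DDC to 6.5DDC. Lmx1b, also expressed in serotonergic neurons, supplied most of the list's summed level, at 8.72 ± 4.44, 19.7 ± 7.91 and 10.7 ± 2.73 FPKM.

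RefSeq promoter sequences (GRCm38.p6) were matched for Olig2, Olig3, Pdgfra and Cspg4, 4 of the 6 genes. The 250 bases before the RefSeq start of Olig2 (chr16:91225300-91225549, plus strand) and of Olig3 (chr10:19356289-19356538, plus strand) are shown because these related factors share a sequence feature there. Capitals mark TATAAA, the TATA box letters, searched on the given strand.
Olig2: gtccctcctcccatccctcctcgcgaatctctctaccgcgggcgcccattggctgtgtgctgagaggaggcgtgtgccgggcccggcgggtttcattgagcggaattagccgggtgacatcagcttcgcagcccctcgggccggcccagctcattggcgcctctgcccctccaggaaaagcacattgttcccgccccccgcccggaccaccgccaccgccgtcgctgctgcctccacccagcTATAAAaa
Olig3: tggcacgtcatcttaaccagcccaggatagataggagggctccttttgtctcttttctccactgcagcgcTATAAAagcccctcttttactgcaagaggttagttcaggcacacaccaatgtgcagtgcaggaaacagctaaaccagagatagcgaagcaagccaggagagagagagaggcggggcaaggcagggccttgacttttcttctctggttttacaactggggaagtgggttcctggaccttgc
The match begins 8 bases before the RefSeq start in Olig2 and 180 bases before it in Olig3. The GENCODE start of Olig2 lies 93 bases before the RefSeq start, so the match of Olig2, which begins 85 bases after the GENCODE start, is inside the annotated gene. In Olig3 the starts are 6 bases apart and the match lies 174 bases before the GENCODE start. Of 32817 promoter windows of the same length, 7.60% hold TATAAA on the given strand, and those of Pdgfra and Cspg4 do not. The E-box letters CANNTG, which bHLH factors bind, occur once in the window of Olig3 and once in that of Pdgfra, searched on both strands, and in 66.2% of all windows. The Gli consensus GACCACCCA, on either strand, is in none of the 4 windows and in 0.226% of all windows. The windows of Olig2 and Olig3 are 66.8% and 51.6% G or C, against a median of 52.4%.

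Sox10, on the minus strand at chr15:79154908-79165240 in 5 exons, was at or under the floor in all 9 libraries. It had 0 counts in all libraries of 4.5DDC and 5.5DDC and in 6.5DDC replicate 1. The other libraries of 6.5DDC had 1 count in replicate 2 and 2 counts in replicate 3, which is 0.0607 and 0.126 CPM. Each of the 7 libraries at 0 allows a level of up to its floor, at most 0.271 CPM. No fold is given, since each group was at or under the floor, and a difference was not detectable at this depth.

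Cspg4, on the plus strand at chr9:56865033-56899870 in 10 exons, had 6, 3 and 2 counts at 4.5DDC in replicates 1, 2 and 3. It had 31, 8 and 6 counts at 5.5DDC and 2, 4 and 13 at 6.5DDC. Per length and depth this was 0.0236 ± 0.0096, 0.0785 ± 0.0337 and 0.0389 ± 0.0344 FPKM (SD, n = 3). The 5.5DDC libraries lay above the 4.5DDC libraries without overlap, as did 9.29% of the genes with a count (exact permutation p = 0.1, the smallest possible), and the 6.5DDC libraries overlapped both groups. Cspg4 did not pass the filter on low counts. Fitted without that filter, its log2 fold change was 1.71 ± 0.69 from 4.5DDC to 5.5DDC (edgeR adjusted p = 0.36) and -1.0 ± 0.64 from 5.5DDC to 6.5DDC (edgeR adjusted p = 0.53).

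**Figure D2:**
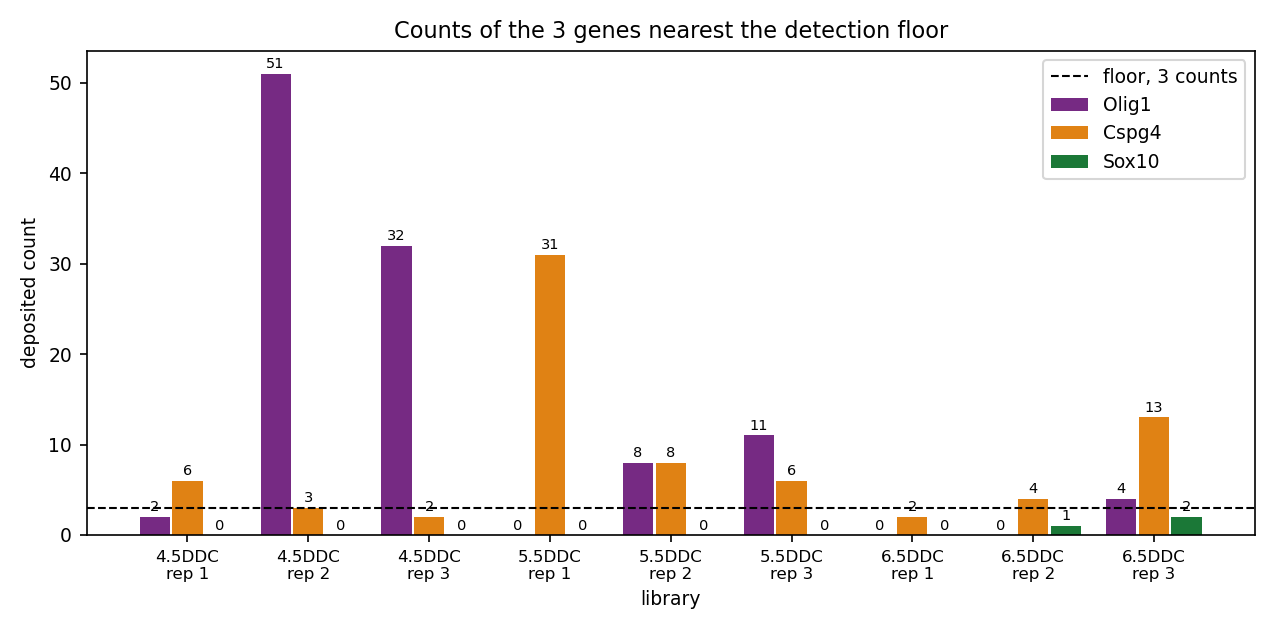
Deposited counts (vertical axis) of Olig1, Cspg4 and Sox10 in each of the 9 libraries (horizontal axis), with the number above each bar and a dashed line at the floor of 3 counts. Sox10 does not pass the floor in any library, and Olig1 reaches 51 counts in 4.5DDC replicate 2 and is at 0 in 3 libraries.

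Pdgfra lies on the plus strand at chr5:75152292-75198215 and was highest at 6.5DDC. At 4.5DDC it stood at 1.36, 1.20 and 0.547 FPKM in replicates 1, 2 and 3, from 206, 114 and 67 counts. At 5.5DDC it was 0.799, 0.802 and 1.09 FPKM, from 174, 78 and 101 counts. At 6.5DDC it was 3.96, 1.63 and 1.81 FPKM, from 423, 228 and 246 counts. The 6.5DDC libraries lay above all the others, with replicate 1 highest, and the 4.5DDC and 5.5DDC groups overlapped. Among genes with a count, 8.17% were higher without overlap at 6.5DDC than at 5.5DDC, and 13.7% than at 4.5DDC. The exact permutation p of FPKM was 0.1 in both comparisons, the smallest possible, and 0.45 after adjustment over the 18 tests of the 6 genes.

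The fit gave Pdgfra a log2 fold change of -0.24 ± 0.41 from 4.5DDC to 5.5DDC (SE, edgeR adjusted p = 0.83) and 1.5 ± 0.42 from 5.5DDC to 6.5DDC (edgeR adjusted p = 0.145). From 4.5DDC to 6.5DDC it was 1.26 ± 0.41 (edgeR adjusted p = 0.059), with a 95% interval from 0.34 to 2.19. The DESeq2 Wald test called the second interval (adjusted p = 0.0141; 0.0141 to 0.347 over the alternatives) and the whole span (adjusted p = 0.0136). Over all alternatives the adjusted p of the whole span ran from 0.0136 to 0.163, with a positive sign in all 19 and a log2 fold change from 0.71 (without 6.5DDC replicate 1) to 1.51 (without 4.5DDC replicate 1). That of the second interval ran from 0.81 (limma on log2(FPKM + 1)) to 1.73 (without 6.5DDC replicate 2). In replicates 2 and 3 alone the change over the whole span was 0.96 ± 0.34 (edgeR adjusted p = 0.066). Annotated genes overlap Pdgfra on the opposite strand, Gm42802 over 4.55% and Gm42803 over 1.66% of its exonic bases.

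Markers of other Pdgfra-expressing cells were measured in the same libraries. All 15 mesenchyme and pericyte genes with a row had counts in all 9 libraries. Their summed level was 61.2, 97.0 and 61.2 FPKM at 4.5DDC in replicates 1, 2 and 3, and 66.1, 61.1 and 60.8 FPKM at 5.5DDC. At 6.5DDC it was 69.8, 131 and 144 FPKM, so that the library with the most Pdgfra, replicate 1, had the least of this list at 6.5DDC. Acta2, the smooth muscle actin gene, was the most abundant over all libraries, at 47.7 ± 21.8, 21.0 ± 19.8 and 26.2 ± 8.10 FPKM. It made up much of the sums, at 46.4, 70.2 and 26.7 FPKM at 4.5DDC in replicates 1, 2 and 3. At 5.5DDC it was 43.9, 9.32 and 9.75 FPKM, and at 6.5DDC 35.2, 23.9 and 19.5 FPKM. Without Acta2, the summed list was higher at each later time point in each replicate. Of the 14 tested, 2 rose from 4.5DDC to 6.5DDC and 0 fell, where 9.21% of all tested genes were higher and 9.53% lower, with a median log2 fold change of 1.23. These were the T-box factor gene Tbx18 (log2 fold change 1.74 ± 0.37, edgeR adjusted p = 0.0131) and Twist1 (0.74 ± 0.19, edgeR adjusted p = 0.028). Twist1 kept its call in 3 of 9 refits that each left out 1 library (5.5DDC replicate 1, 5.5DDC replicate 3 or 6.5DDC replicate 3), with an adjusted p of up to 0.079 without 6.5DDC replicate 2. Tbx18 kept it in 8, all but the one without 6.5DDC replicate 2 (adjusted p = 0.059). The collagen gene Col3a1 stood at 2.23 ± 2.28, 6.64 ± 5.16 and 18.0 ± 14.5 FPKM and was not called (edgeR adjusted p = 0.112). The proteoglycan gene Dcn, the highest of the list at 6.5DDC, stood at 12.7 ± 10.2, 16.3 ± 8.59 and 47.8 ± 26.2 FPKM (edgeR adjusted p = 0.089). Fitted with the replicate block, Col3a1 rose in both intervals (edgeR adjusted p = 0.041 and 0.043), and Lum and Dcn rose in the second (edgeR adjusted p = 0.024 and 0.035).

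The 8 genes of the extraembryonic and definitive endoderm list summed to 22, 11.1 and 8.48 FPKM at 4.5DDC in replicates 1, 2 and 3. They summed to 20.9, 7.83 and 11 FPKM at 5.5DDC and to 23.6, 11.1 and 10.8 FPKM at 6.5DDC. Replicate 1 was the highest library of this list at each time point, and Dab2 was the most abundant gene, at 10.9 ± 5.12, 10.2 ± 4.93 and 7.74 ± 0.168 FPKM. In replicate 1 Dab2 stood at 16.8, 15.7 and 7.90 FPKM over the time points, so its fall is within the sums above. Without Dab2, the summed list was highest at 6.5DDC in each replicate. Gata4, a factor of primitive endoderm and heart, stood at 1.36 ± 1.10, 1.26 ± 0.83 and 3.54 ± 3.54 FPKM. Afp was at 0 in 3 libraries, replicate 2 of 4.5DDC and 5.5DDC and replicate 3 of 6.5DDC, and 0 of 6 tested genes were called, with a median log2 fold change of 1.28 from 4.5DDC to 6.5DDC. With the replicate block, Gata4, Gata6, Sox17 and Cubn were called higher over this span (edgeR adjusted p = 0.036, 0.049, 0.031 and 0.0037). That fit called 13.0% of all tested genes higher, and replicate numbers were not taken to pair these libraries. The part of these cell types in the Pdgfra values was not tested.

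**Figure D3:**
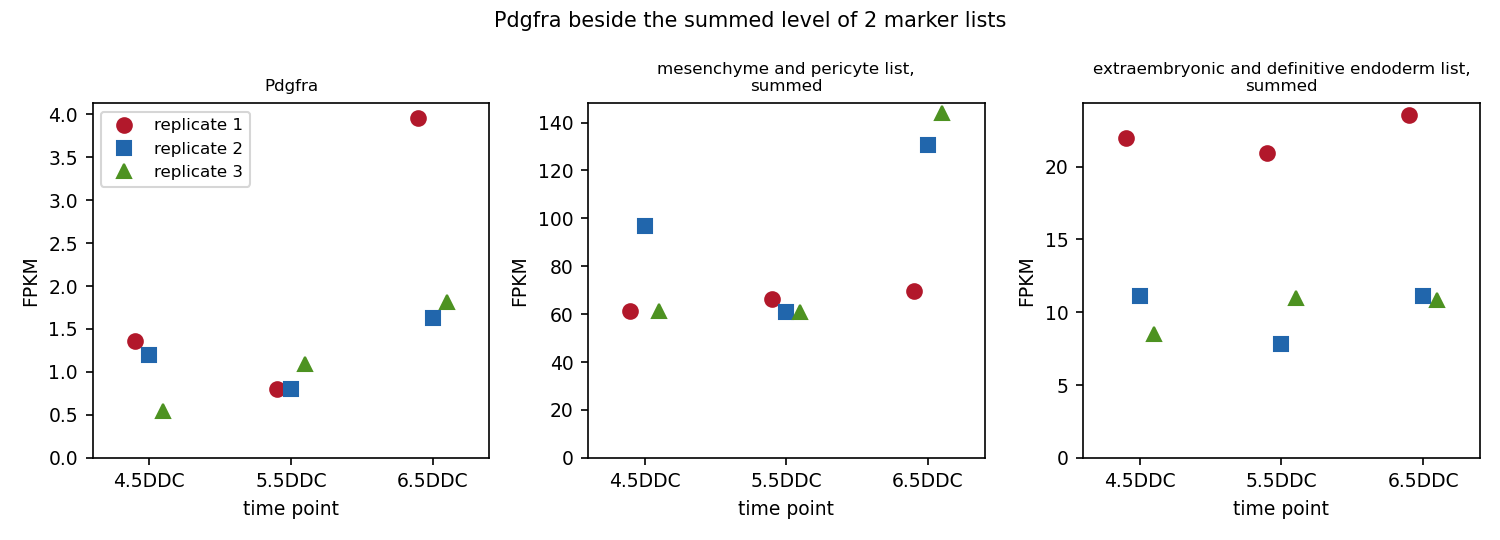
FPKM of Pdgfra (left), summed FPKM of 15 mesenchyme and pericyte genes (middle) and of 8 endoderm genes (right) in each library, by time point, with circles, squares and triangles for replicates 1, 2 and 3. Pdgfra is highest in 6.5DDC replicate 1 at 3.96 FPKM. There the mesenchyme list is at 69.8 FPKM, of which Acta2 is 35.2, and the endoderm list at 23.6 FPKM, of which Dab2 is 7.90.

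Ordered by mean FPKM at 4.5DDC, Olig2 came first at 5.00 ± 4.73. Pdgfra at 1.04 ± 0.430, Olig1 at 0.875 ± 0.848 and Olig3 at 0.841 ± 0.225 followed and did not differ beyond their spread, and Olig2's own spread reached down to them. Cspg4 at 0.0236 ± 0.0096 lay below all libraries of these 4 genes, its highest at 0.0321 and Olig1's lowest at 0.0426. Sox10 was last at 0. At 5.5DDC the order was Olig2 at 1.27 ± 0.992, Pdgfra at 0.897 ± 0.166, Olig3 at 0.40 ± 0.148, Olig1 at 0.216 ± 0.196, Cspg4 at 0.0785 ± 0.0337 and Sox10 at 0. Pdgfra and Olig3 did not overlap there, while Olig2 and Pdgfra, Olig3 and Olig1, and Olig1 and Cspg4 did. At 6.5DDC Pdgfra came first at 2.46 ± 1.29 FPKM, above Olig2 at 0.673 ± 0.704 and Olig3 at 0.454 ± 0.407, with no overlap of libraries. Olig2 and Olig3 did not differ beyond their spread, and Olig2's lowest library, at 0.0533, lay among those of Cspg4. Nor did Cspg4 at 0.0389 ± 0.0344, Olig1 at 0.032 ± 0.055 and Sox10 at 0.0186 ± 0.0188 differ beyond theirs. Olig2 at 4.5DDC exceeded 52.4% of the genes with a count, and Pdgfra at 6.5DDC exceeded 44.5%.

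The filter on low counts left 4 of the 6 genes to be tested, Olig1, Olig2, Olig3 and Pdgfra. From 4.5DDC to 5.5DDC, 0 of the 4 were called by edgeR, where 0.0746% of all tested genes were, and 0 had an unadjusted p under 0.05, against 15.4% of all genes. From 5.5DDC to 6.5DDC, 0 of 4 were called against 0.224% of all genes, and 1 had an unadjusted p under 0.05, against 18.5%. From 4.5DDC to 6.5DDC, 0 of 4 were called against 18.7% of all genes, and 3 had an unadjusted p under 0.05, against 35.4%. The DESeq2 Wald test gave no adjusted p to Olig1 and Olig3 in the shorter intervals. It called 0 of 2 in the first, against 3.80% of the genes given an adjusted p, and 1 of 2 in the second, against 5.04%. Over the whole span it called 2 of 4, against 26.0%. In limma voom 0 of 4 were called in each comparison, against 0.0746%, 0.251% and 18.0% of all genes. With the replicate block, 1 of 4 was called in the first interval and 0 in the second, against 1.44% and 1.32% of all genes. That call was Olig2, lower, where 0.170% of all genes were called lower. In replicates 2 and 3 alone, 0 of 4 were called in each interval, against 3.31% and 4.97% of all genes. Over the whole span 2 of 4 were called there, against 31.3% of all genes. Both, Olig1 and Olig2, were lower, where 14.8% of all genes were called lower. The second interval's change minus the first's was 1.74 for Pdgfra on the log2 scale (edgeR adjusted p = 0.76). This difference passed for 0 of the 4 genes and for 0 of all tested genes.

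**Figure D4:**
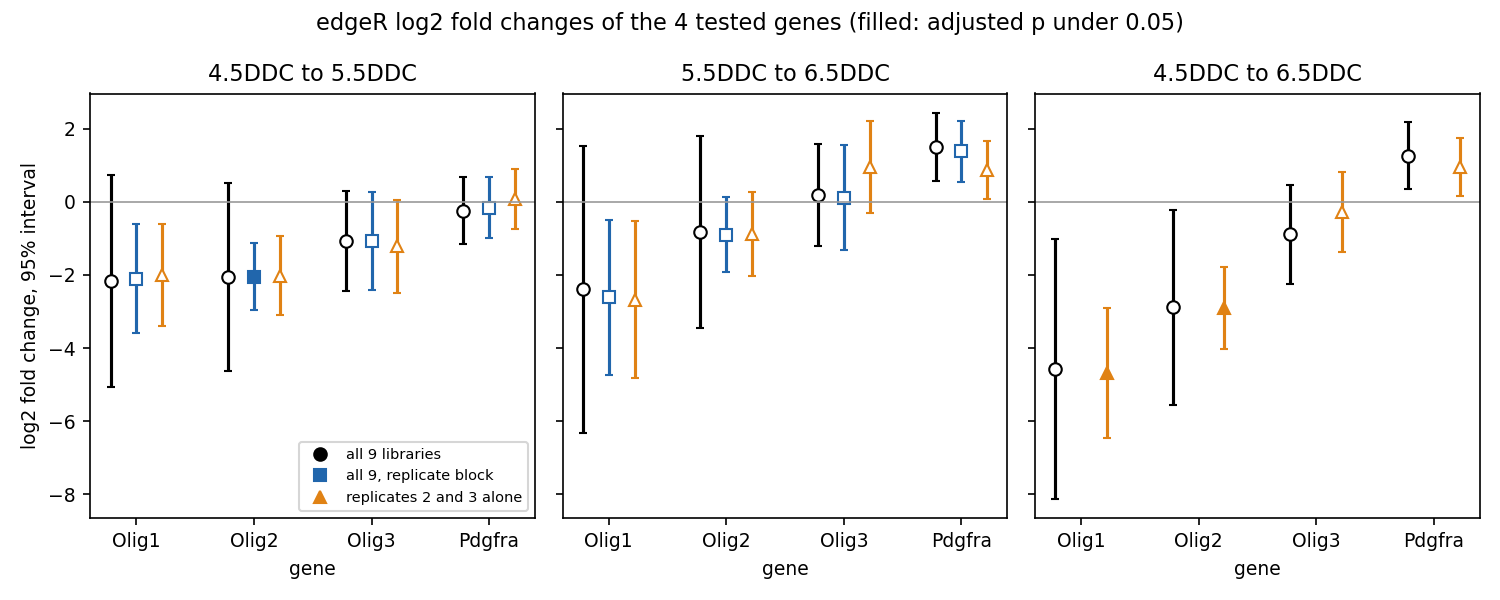
edgeR log2 fold changes (vertical axis) of Olig1, Olig2, Olig3 and Pdgfra for each pair of time points, with 95% intervals, from all 9 libraries (circles), with the replicate number as a block (squares, neighbouring time points) and from replicates 2 and 3 alone (triangles); filled symbols have an adjusted p under 0.05. Estimates for Olig1 and Olig2 are near one another in all fits (-4.57 and -4.69 for Olig1 over the whole span), while their intervals narrow without replicate 1.

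By the likeness of log2 CPM over the 9 libraries, the genes closest to Olig2 were Ubqln2 (Pearson r = 0.99), Rab3ip (r = 0.98) and Mnx1 (r = 0.98). Mnx1, a homeobox factor of somatic motor neurons, stood at 0.517, 0.216 and 0.174 mean FPKM over the time points. Those closest to Olig1 were Limd1 (r = 0.98), Trib1 (r = 0.97) and Rnpep (r = 0.96), and to Olig3 Frmd5 (r = 0.98), Rab11fip4 (r = 0.94) and Stap2 (r = 0.93). Closest to Pdgfra were Glipr1 (r = 0.96), the extracellular protease gene Adamts9 (r = 0.93) and Ngrn (r = 0.93). At 4.5DDC and 6.5DDC, Glipr1 stood at 1.68 and 10.2 mean FPKM and Adamts9 at 2.11 and 6.94. These genes were picked for their likeness to Pdgfra in the same libraries, so their levels are no separate evidence. Libraries share time point and replicate number, so these values are descriptions.

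Genes of the same programmes were taken from lists and counted beside the 6. In the 9-library fit, 0 listed genes were called in either shorter interval, so the counts that follow are for 4.5DDC to 6.5DDC. There, 9.21% of all tested genes were higher and 9.53% lower, and the median log2 fold change was 0.00. Of the listed genes called, all had 3 of 3 6.5DDC libraries beyond the 4.5DDC mean FPKM in the called direction, except Neurog3 and Zbtb20 with 2 of 3. Of 13 tested OPC-enriched genes, 3 rose, 1 fell and 9 were not called, with a median of 0.62. Ptprz1, a receptor phosphatase of OPCs and radial glia, rose from 5.28 ± 2.76 through 15.2 ± 2.78 to 31.8 ± 5.08 FPKM (edgeR adjusted p = 0.0023). The proteoglycan gene Cspg5 rose from 5.21 ± 0.61 to 15.8 ± 3.92 FPKM (edgeR adjusted p = 0.0015) and Sox6 from 6.44 ± 1.02 to 13.7 ± 0.87 FPKM (edgeR adjusted p = 0.0027). Sox13 fell from 24.2 ± 9.09 to 7.95 ± 2.51 FPKM (edgeR adjusted p = 0.0041). These 4 calls held in 9 of 9 refits that each left out 1 library. Neural progenitors are known to express Ptprz1, Cspg5 and Sox6 as well. With the replicate block, 3 genes rose from 4.5DDC to 5.5DDC, namely Cspg5, Ptprz1 and the proteoglycan gene Ncan (edgeR adjusted p = 0.018, 0.022 and 0.030). Bcan, Pcdh15, Matn4, Zfp488 and Bcas1 were not tested, with 12 to 48 counts each over the 9 libraries.

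Of 9 tested myelinating oligodendrocyte genes, 1 rose and 1 fell, with a median of 0.11. Gpr37, a receptor gene rose from 2.05 ± 0.93 to 13.2 ± 1.46 FPKM (edgeR adjusted p = 0.0015), in 9 of 9 refits. With the replicate block it rose in both intervals (edgeR adjusted p = 0.024 and 0.022). Myrf, which encodes the regulator of myelin genes, fell from 4.37 ± 1.62 to 1.61 ± 0.56 FPKM (edgeR adjusted p = 0.0133), a call lost without 6.5DDC replicate 2 (adjusted p = 0.057). Tspan2 stood at 11.1 ± 0.98 and 11 ± 1.5 FPKM at 4.5DDC and 6.5DDC, the most abundant of the list at 4.5DDC. Mog and Opalin, defining genes of myelin, had 1 and 2 counts in all.

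Among 5 tested genes of PDGF ligands and the other PDGF receptor, 1 rose and 0 fell, with a median of 0.58. Pdgfa, the main ligand of the receptor, stood at 10.6 ± 3.93, 12.5 ± 1.66 and 6.91 ± 2.35 FPKM and was not called (edgeR adjusted p = 0.152). Pdgfb rose from 0.102 ± 0.086 to 0.923 ± 0.638 FPKM (edgeR adjusted p = 0.037), held in 3 of 9 refits without 1 library (5.5DDC replicate 1, 5.5DDC replicate 3 or 6.5DDC replicate 1), with an adjusted p of up to 0.102 without 6.5DDC replicate 2. Pdgfc stood at 8.12 ± 2.68, 9.46 ± 0.83 and 12.2 ± 1.08 FPKM and Pdgfrb at 1.07 ± 0.61, 1.67 ± 0.20 and 1.64 ± 1.04 FPKM.

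Olig factors pair with E proteins and are held back by Id proteins. Of 12 tested genes of these and related bHLH factors, 1 rose and 1 fell, with a median of -1.03. The E protein gene Tcf3 fell from 49.3 ± 22.7 to 17.1 ± 5.69 FPKM (edgeR adjusted p = 0.0164). It lost its call without 4.5DDC replicate 2 or without 6.5DDC replicate 2 (highest adjusted p = 0.069). The E protein gene Tcf12 stood at 74.2 ± 9.35 and 75.4 ± 5.79 FPKM. Neurog3 rose from 0.645 ± 0.360 to 16.1 ± 15.8 FPKM (edgeR adjusted p = 0.030), held in 4 of 9 refits (without 6.5DDC replicate 1 or any one 5.5DDC library), with an adjusted p of up to 0.086 without 4.5DDC replicate 3. Id3 stood at 64.4 ± 25.8, 67.1 ± 40.0 and 29.7 ± 10.9 FPKM (edgeR adjusted p = 0.095).

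Ventral progenitor factors, which set the domains in which Olig2 is made, gave 3 of 8 tested genes lower and 0 higher, with a median of -1.21. Nkx2-9 fell from 4.64 ± 3.97 to 0.165 ± 0.132 FPKM (edgeR adjusted p = 0.0054). Nkx6-1, which acts upstream of Olig2 in motor neuron progenitors, fell from 44.6 ± 12.5 to 20.4 ± 6.58 FPKM (edgeR adjusted p = 0.022). Nkx6-2 fell from 2.95 ± 2.18 to 0.962 ± 0.248 FPKM (edgeR adjusted p = 0.048). Nkx2-9 held in 9 of 9 refits that each left out 1 library, Nkx6-1 in 7, lost without 4.5DDC replicate 2 or 6.5DDC replicate 2, and Nkx6-2 in 3, kept without 4.5DDC replicate 1, 4.5DDC replicate 3 or 5.5DDC replicate 1. The highest adjusted p came without 4.5DDC replicate 2 for Nkx6-1 (0.083) and for Nkx6-2 (0.193). In the blocked fit Nkx2-9 fell from 4.5DDC to 5.5DDC (edgeR adjusted p = 0.041). Foxa2, a floor plate factor and the most abundant of the list, stood at 64.8 ± 19.7, 80.1 ± 17.4 and 74.2 ± 8.96 FPKM.

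Motor neuron genes gave 2 of 6 tested lower and 0 higher, with a median of -1.63. Isl1 fell from 23.9 ± 6.93 through 12.5 ± 3.97 to 4.44 ± 0.82 FPKM (edgeR adjusted p = 0.0017) and Phox2a from 6.03 ± 2.01 to 1.34 ± 0.63 FPKM (edgeR adjusted p = 0.0100), both in 9 of 9 refits. In the blocked fit Isl1 fell from 5.5DDC to 6.5DDC (edgeR adjusted p = 0.035). Summed over the 7 genes with a row, the list stood at 26.2, 54.3 and 36.8 FPKM at 4.5DDC in replicates 1, 2 and 3. It stood at 12.3, 28.7 and 27.5 FPKM at 5.5DDC and at 8.72, 11.5 and 11 FPKM at 6.5DDC, with Isl1 the most abundant gene. Replicate 1 was lowest at each time point, as for Olig2, and Isl2 and Lhx3 were at 0 in 6.5DDC replicate 1. The summed levels of the neuron list and of the gliogenic list, both described below, were also lowest in replicate 1 at each time point. The part of motor neuron RNA in the Olig values was not tested.

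Gliogenic factors gave 4 of 9 tested genes higher and 0 lower, with a median of 1.36. Nfia rose from 3.6 ± 0.57 through 7.93 ± 1.76 to 12.9 ± 3.26 FPKM (edgeR adjusted p = 0.0015), and its relative Nfib from 1.51 ± 0.77 to 5.59 ± 1.99 FPKM (edgeR adjusted p = 0.0036). The glutamate transporter gene Slc1a3 rose from 14.7 ± 3.49 to 45.6 ± 1.71 FPKM (edgeR adjusted p = 0.0010). Zbtb20 rose from 0.551 ± 0.302 to 1.05 ± 0.46 FPKM (edgeR adjusted p = 0.024), lost in 3 of 9 refits (highest adjusted p = 0.093, without 4.5DDC replicate 2; the others without 6.5DDC replicate 2 or replicate 3). Nfia, Nfib and Slc1a3 held in 9 of 9. Fitted with the block, Slc1a3 rose in both intervals (edgeR adjusted p = 0.028 and 0.026), Sox9 in the first (edgeR adjusted p = 0.049) and Nfib in the second (edgeR adjusted p = 0.048).

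Sox10 is shared by OPCs and neural crest, so crest and Schwann cell genes were examined beside it. Of 6 tested, 1 rose and 1 fell, with a median of -0.69. Ednrb, which radial glia also express, rose from 130 ± 17.9 to 199 ± 12.8 FPKM (edgeR adjusted p = 0.026), and Ets1 fell from 4.22 ± 0.38 to 2.81 ± 0.32 FPKM (edgeR adjusted p = 0.040). Ednrb lost its call without 4.5DDC replicate 1 or 2, 5.5DDC replicate 2 or 6.5DDC replicate 2 (adjusted p of up to 0.102). Ets1 kept its call only without 5.5DDC replicate 1, with an adjusted p of up to 0.126 in the others. Ngfr stood at 8.73 ± 3.67, 6.71 ± 3.78 and 5.19 ± 3.45 FPKM over the time points (edgeR adjusted p = 0.38). Snai2 stood at 1.23 ± 0.33, 1.28 ± 0.08 and 1.47 ± 0.90 FPKM (edgeR adjusted p = 0.71). Foxd3, an early crest factor, had 3 counts over all libraries.

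**Figure D5:**
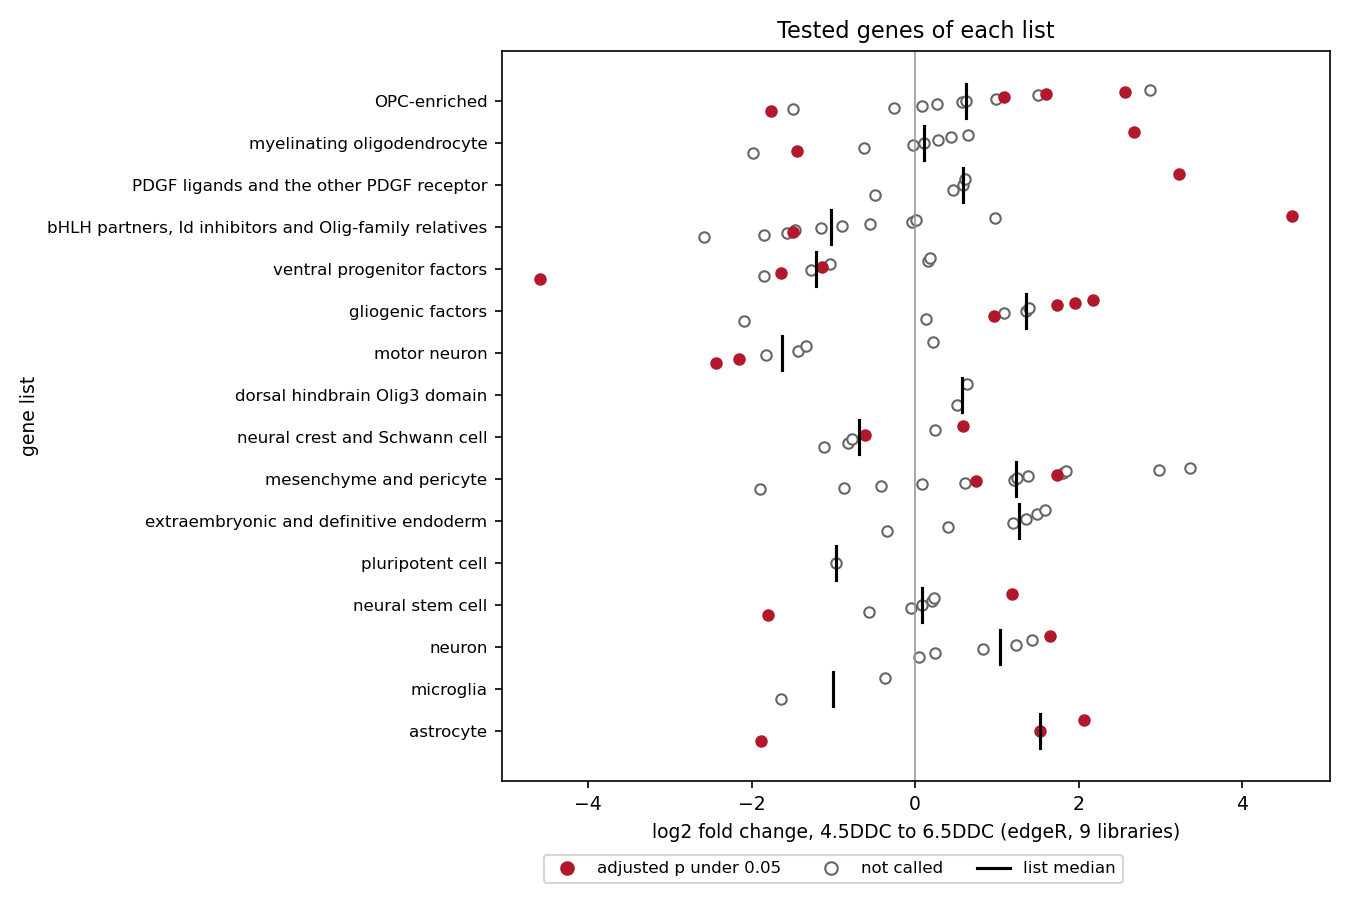
edgeR log2 fold changes from 4.5DDC to 6.5DDC (horizontal axis) of the tested genes of each list (vertical axis), with filled points for an adjusted p under 0.05, open points for genes not called and a bar at the list median. The median is 1.36 for gliogenic factors, -1.63 for motor neuron genes and -1.21 for ventral progenitor factors, against 0.00 over all tested genes.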

How the data were processed

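RNA-seq reads (single-end, HiSeq2500) were mapped to GRCm38 by the authors with TopHat 2.0.4. The authors deposited estimated counts per gene symbol from HTSeq 0.6.1, of which 98 symbols held values that were not whole, so counts were rounded here; the 6 genes had whole counts. Counts had been assumed whole when the tests were chosen. The authors deposited FPKM from Cufflinks 2.1.1, and log2 CPM from limma voom without normalization, which served here only as a check on the counts. Strand use in counting is not given in the sources used here. Labels give 4, 5 and 6 days in one field and 4.5, 5.5 and 6.5 in the title; the title was used.

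Counts were fitted over all 9 libraries in edgeR 4.0.16 (R 4.3.3; filterByExpr, TMM, glmQLFit, glmQLFTest), with Benjamini-Hochberg adjustment over the 14742 genes tested and a threshold of 0.05. Standard errors and 95% intervals come from the F statistic. Levels are mean ± SD of FPKM, and FPKM was compared by two-sided exact permutation over 3 against 3 libraries. Named genes are the 6, up to 4 per list (those called first, by size of the 4.5DDC to 6.5DDC change, then those of highest mean FPKM), the 3 most correlated with each tested gene, and neighbours of Olig1 and Olig2; Sox2, Col3a1, Gm21970, genes given for low counts and genes called only with the replicate block (Ncan, Sox9, Lum, Dcx) and microglial genes were named after their values were seen. Of 151 list entries 147 had a row; the others were not analysed here. The 6 genes and the lists were chosen with earlier results of these data known. The edgeR fit over all 9 libraries was tested on simulated data.

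Alternatives were DESeq2 1.42.0 size factors or Wald test, library totals, no filter on low counts, limma 3.58.1 on voom values or on log2(FPKM + 1) and log2(FPKM + 0.1), a replicate block, and leaving out each library. Added after seeing the data were replicates 2 and 3 alone and a block for replicate 1 against the others. To see whether replicate numbers, which come from the titles, pair the libraries, deviations from time-point means were correlated over the tested genes. Same-numbered libraries correlated at 0.74, 0.39 and 0.45 between 4.5DDC and 5.5DDC, and at 0.45, 0.37 and 0.20 between 5.5DDC and 6.5DDC. Replicate 2 with 3 and replicate 3 with 2 correlated at 0.29 and 0.39 in the first interval. In the second they correlated at 0.22 and 0.41. These values set replicate 1 apart but do not show that numbers 2 and 3 pair libraries. The replicate block was kept as planned for neighbouring time points, so its calls rest partly on a pairing that is not shown. Between 4.5DDC and 6.5DDC same-numbered libraries correlated at 0.38, -0.04 and -0.22, so the numbers were not taken to pair these.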

Additional observations from a re-analysis of the deposited data

How the results depend on the processing

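Signs of the 4 tested genes were the same under the alternatives, except for small changes. Olig3 from 5.5DDC to 6.5DDC (0.18 on the log2 scale) turned to -0.24 with limma voom and -0.10 with limma on log2(FPKM + 0.1), and ran from -0.70 to 0.61 as libraries were left out; it was 0.94 in replicates 2 and 3 alone. Pdgfra from 4.5DDC to 5.5DDC (-0.24) turned to 0.082 in replicates 2 and 3 alone and ran from -0.53 to 0.0040 as libraries were left out. The cause was not tested. Over the single-gene fold changes under each alternative, 202 kept sign and call, 16 gained a call and 6 changed sign. The 4 fold changes to which DESeq2 gave no adjusted p, those of Olig1 and Olig3 in the shorter intervals, are left out of this count.

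Calls among the 4 genes, 0 in each comparison, moved as follows. From 4.5DDC to 5.5DDC 1 was called with the replicate block (212 of 14742 genes) and 1 with the block for replicate 1 (484 of 14742). From 5.5DDC to 6.5DDC 1 was called by DESeq2 (5.04% of genes given an adjusted p). From 4.5DDC to 6.5DDC, where numbers were not taken to pair the libraries, 3 (Olig1, Olig2 and Pdgfra) were called with the replicate block (3418 of 14742 genes). The same 3 were called with the block for replicate 1 (4382 of 14742). In that comparison 2 were called in replicates 2 and 3 alone (31.3% of all genes) and 2 by DESeq2 (3681 genes, 26.0% of those given an adjusted p). There 1 was called without the filter (2596 of 23118 genes), and 0 to 1 as libraries were left out. The replicate block changed no other call of the 4; calls it changed among listed genes of neighbouring time points stand with those genes. From 4.5DDC to 6.5DDC it also moved calls in 9 of the lists, in a fit that called 13.0% of all tested genes higher and 10.2% lower. Genes called higher went from 0 to 4 in the endoderm list (Gata4, Gata6, Sox17 and Cubn), from 2 to 6 in mesenchyme, from 4 to 6 in gliogenic factors, from 1 to 3 in neuron, from 3 to 5 in OPC-enriched genes and from 1 to 2 in bHLH partners. Genes called lower went from 0 to 1 in mesenchyme, from 1 to 2 in OPC-enriched genes, from 1 to 5 in bHLH partners, from 3 to 4 in ventral progenitor factors, from 2 to 3 in motor neuron and from 1 to 2 in neural crest genes.

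Calls over all genes from 4.5DDC to 5.5DDC (11) became 212 with the replicate block, 484 with the block for replicate 1, 485 in replicates 2 and 3 alone, 25 without the filter and 495 by DESeq2, and 1 to 28 as libraries were left out. From 5.5DDC to 6.5DDC (33) they became 195, 634, 728, 78 and 671 in the same order, 55 with library totals, and 8 and 13 with limma on log2(FPKM + 1) and log2(FPKM + 0.1), and 0 to 196 as libraries were left out. From 4.5DDC to 6.5DDC (2763) they became 3418 with the replicate block, 4382 with the block for replicate 1, 4586 in replicates 2 and 3 alone and 1803 with limma on log2(FPKM + 0.1), and 1125 to 3132 as libraries were left out. The cause was not tested.

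The mean ratio of Olig2 to Olig1 at 4.5DDC, 8.08 ± 4.45 (SD, n = 3) in FPKM, was 9.38 in counts and 5.51 to 9.47 as libraries were left out. The leave-out fits with 2 libraries in a group share 1 estimate of spread. Olig1 and Cspg4 were at or under the floor in several libraries, Olig2 and Olig3 in 6.5DDC replicate 1 and Sox10 in all 9, so small differences of these genes were not detectable at this depth.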

Other observations

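Other cell type lists were read in the same libraries, from 4.5DDC to 6.5DDC. Of 6 tested neuron genes 1 rose and 0 fell, with a median log2 fold change of 1.03. Map2 rose from 47.9 ± 2.87 to 153 ± 64.6 FPKM (edgeR adjusted p = 0.0077). With the replicate block, Dcx rose from 5.5DDC to 6.5DDC (edgeR adjusted p = 0.024). Of 3 tested astrocyte genes, Aldh1l1 rose from 3.10 ± 1.62 to 11.7 ± 0.91 FPKM (edgeR adjusted p = 0.0046) and Aqp4 from 0.829 ± 0.387 to 2.41 ± 1.28 FPKM (edgeR adjusted p = 0.039). Gja1 fell from 31.5 ± 6.95 to 8.53 ± 2.90 FPKM (edgeR adjusted p = 0.0026), and the median was 1.53. Map2, Aldh1l1 and Gja1 held in 9 of 9 refits that each left out 1 library, and Aqp4 in 3 (4.5DDC replicate 1, 5.5DDC replicate 1 or 6.5DDC replicate 3 left out), with an adjusted p of up to 0.131 without 4.5DDC replicate 2. Of 7 tested neural stem cell genes, 1 rose and 1 fell, with a median of 0.09.

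Of the microglial genes, Aif1 and Cx3cr1 had 3 and 1 counts in all and P2ry12 was at 0 in all 9 libraries. The others, Csf1r and Tmem119, had 234 and 144 counts in all, and 0 of these 2 tested genes were called by edgeR, with a median of -1.01. Of the pluripotent cell list 1 of 5 genes was tested and 0 were called (log2 fold change -0.96). Pou5f1, which defines pluripotent cells, had 4 counts over the 9 libraries.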
